A study of Mus musculus with 18 samples.

Results

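The genes described here are 31 genes of sterol and fatty acid synthesis among the 23337 genes counted in the series. They were listed by name from the pathway, with earlier results of these data known. They comprise 7 genes of the mevalonate pathway, 9 of the steps from squalene to the sterol ring, 5 that control the transcription factors called sterol regulatory element-binding proteins (SREBPs), 4 of fatty acid synthesis and desaturation, and 6 of sterol transport, storage and efflux. All 31 had counts, and 30 passed the filter on low counts and were tested. The remaining gene, Scd1, a stearoyl-CoA desaturase, had 0 to 6 counts in a library and is given by its levels only.

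RNA was sequenced from invariant natural killer T (iNKT) cells, lipid-recognising lymphocytes restricted by CD1d, which were sorted from thymi of WT mice and SKG mice. SKG mice are BALB/c mice with a spontaneous point mutation in Zap70, a kinase downstream of the T cell receptor (TCR), which weakens TCR signals. Both strains derive from crosses of BALB/cJ with SKG mice and were bred as separate lines of F3 offspring, so that differences between WT and SKG are also differences between lines. By the study's gates on CD1d tetramer-binding cells, NKT1 cells were ICOS low and CD49a positive, NKT2 cells were negative for CD49a and Sdc-1 and high for ICOS, CD4 and TCRβ, and NKT17 cells were CD49a negative, ICOS high and Sdc-1 positive. The 3 subsets in each of the 2 genotypes gave 6 groups of 3 libraries. No treatment was given, and the age and sex of the mice and any pooling of animals were not given in the sources used here, so the p-values measure the spread between these libraries.

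Cells make cholesterol from acetyl-CoA through the mevalonate pathway, which ends in farnesyl diphosphate, and then through squalene, whose cyclised product is trimmed and reduced to the sterol. SREBP-2 (gene Srebf2) mainly drives the genes of this route and SREBP-1 (Srebf1) mainly those of fatty acid synthesis. When sterols are plentiful, the INSIG proteins hold SCAP and the SREBP precursors in the endoplasmic reticulum, and the liver X receptors switch on the efflux pumps ABCA1 and ABCG1. Dividing lymphocytes use both routes to build membrane.

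RefSeq promoter windows (build GRCm38.p6, 250 bases before to 50 bases after a transcription start) were given for 23 of the 31 members. Abcg1, Fdft1, Fdps, Npc1, Scd1, Scd2, Sqle and Stard4 had no entry. Each window was searched on both strands, and a gene with several windows was counted once. The nuclear factor Y box CCAAT was in 18 of the 23 members (78.3%) and in 41.1% of all 27025 genes with a window. The GC box GGGCGG was in 19 (82.6%), against 38.2% of all genes. The E-box CACGTG was in 5 (21.7%), against 8.09% of all genes, and its longer form TCACGTGA, which holds the E-box, was in 0, against 1.12%. The sterol-element-like motif TCACNCCAC was in 1 (4.35%), Hmgcs1, against 1.44% of all genes. The strict DR4 element of the liver X receptors was in 0, and in 0.0148% of all genes. These are matches of letters and not sites of binding, which was not measured here. The 150 bases before the start are shown for 4 members that differed between groups in the comparisons that follow, 5′ to 3′ on the strand of the gene, with the nuclear factor Y box on either strand, the E-box and the sterol-element-like motif in capitals.
Mvd, chr8:122443423-122443572, minus strand: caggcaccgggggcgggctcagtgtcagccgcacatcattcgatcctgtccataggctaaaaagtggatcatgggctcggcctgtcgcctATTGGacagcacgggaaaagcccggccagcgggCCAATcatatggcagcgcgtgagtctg
Hmgcs1, chr13:119690201-119690350, plus strand: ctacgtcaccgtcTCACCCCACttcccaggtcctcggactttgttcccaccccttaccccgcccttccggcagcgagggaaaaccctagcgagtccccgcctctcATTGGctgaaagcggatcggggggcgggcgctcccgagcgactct
Insig1, chr5:28071262-28071411, plus strand: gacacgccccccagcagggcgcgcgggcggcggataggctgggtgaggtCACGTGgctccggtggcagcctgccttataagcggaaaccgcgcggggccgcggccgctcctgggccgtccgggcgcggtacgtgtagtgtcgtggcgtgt
Fasn, chr11:120824548-120824697, minus strand: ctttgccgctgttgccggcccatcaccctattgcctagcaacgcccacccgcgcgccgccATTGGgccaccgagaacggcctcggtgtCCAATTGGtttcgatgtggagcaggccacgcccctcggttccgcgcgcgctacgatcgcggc

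The libraries held 4391029 to 8895917 counts each. Levels are given as CPM, counts scaled to the library total after adjusting with TMM factors of 0.928 to 1.07, as mean ± SD (n = 3). A gene was called when edgeR's quasi-likelihood test gave an adjusted p under 0.1 over all 11118 tested genes and the fold change was at least 1.5. The summed level of 6 NKT17 markers was 2824 to 4261 CPM in NKT17 libraries and at most 14.5 CPM elsewhere, and that of 6 NKT1 markers 3752 to 5163 CPM in NKT1 libraries and 185 to 424 CPM elsewhere. The 6 NKT2 markers separated less: they summed to 2284 to 2559 CPM in WT NKT2 and 1517 to 1634 CPM in WT NKT17, but to 1693 to 2137 CPM in SKG NKT2 and 1686 to 1823 CPM in SKG NKT17, which overlap. Not every marker in these sums separated the subsets. Klrb1c, an NKT1 marker, was at 38.9 CPM in WT NKT17 and 27.0 CPM in SKG NKT1. Gata3, an NKT2 marker, was at 268 to 269 CPM in all WT subsets. Ccr6, an NKT17 marker, was at 12.0 CPM in WT NKT17 and 592 CPM in SKG NKT17. Sdc1, Cd4 and Icos, which are among these markers, encode proteins used in the sort. Markers of other cells were low. The 3 B cell markers counted summed to 24.8 to 40.7 CPM in SKG NKT17 against 7.82 to 11.1 CPM in WT NKT17, almost all of it Cd79b, with Ms4a1 at 0 in every SKG NKT17 library. The 7 markers of double-positive thymocytes summed to 14.3 to 47.5 CPM in SKG NKT17 against 5.27 to 12.5 CPM in WT NKT17, mostly Cd8a and Cd8b1, with Rag1, Rag2 and Dntt at 0 in all 6 NKT17 libraries. Gene counts hold no information on the Zap70 mutation, so the SKG label could not be checked against them.

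Per kilobase of exon, the members spanned a wide range of abundance. The most abundant was Abcg1, the cholesterol efflux pump, at 61.2 CPM per kb (mean over 18 libraries), followed by Fdps, which makes farnesyl diphosphate, at 51.0 CPM per kb and Ebp, the sterol isomerase, at 47.1 CPM per kb. Nr1h2, which encodes liver X receptor β, was at 29.1 and Mvd, which makes isopentenyl diphosphate, at 25.5 CPM per kb. At the low end stood Npc1, the lysosomal cholesterol exporter, at 1.02, the sterol reductase Tm7sf2 at 0.955, the squalene epoxidase Sqle at 0.469 and Scd1 at 0.0835 CPM per kb. Scd2, the other stearoyl-CoA desaturase, was at 22.8 CPM per kb. Hmgcs1 has no length in the annotation used and was left out of this order. The exons of Fdft1 (26.9% of its bases, with Ctsb), Scap (18.9%, with 5830462I19Rik) and Tm7sf2 (15.3%, with 1110014N23Rik) overlap other genes. Acat2, Idi1, Scd1 and Scd2 have close paralogs. Counts of these genes may therefore lack shared reads or hold reads of the others.

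**Figure D1:**
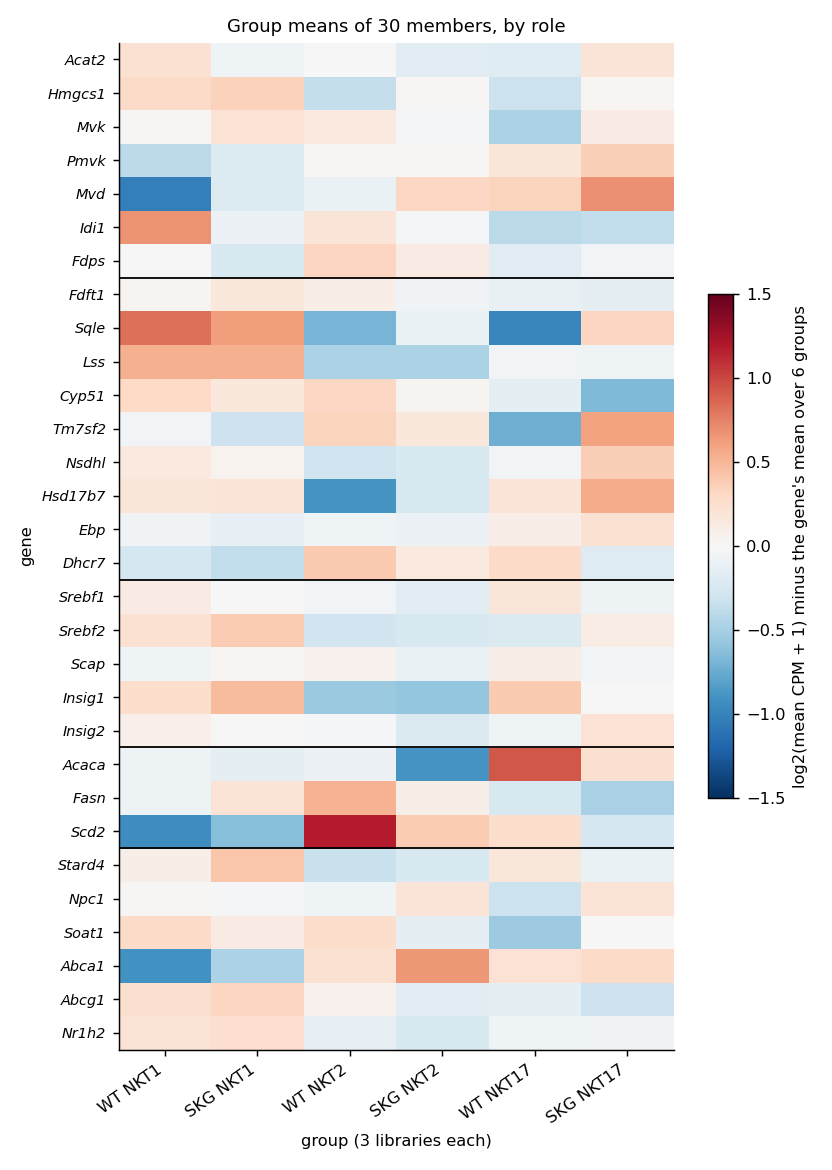
Group means of the 30 tested members in the 6 groups, as log2(mean CPM + 1) minus the mean of that value over the 6 groups for each gene, with rows in the order of the pathway and lines between the roles. Red is above and blue below the gene's own mean, and the values run from -1.03 (Mvd in WT NKT1) to 1.18 (Scd2 in WT NKT2).

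The comparison of SKG with WT asked which of these genes differ between the SKG and WT lines in each subset. TCR signals were not measured in these libraries. In at least 1 subset 4 of the 30 tested members were called, and the same share over all genes is not given here. By subset, 3.33%, 6.67% and 3.33% of the members were called in NKT1, NKT2 and NKT17. Of all tested genes, 3.27%, 7.95% and 8.37% were called. In NKT1 cells 1 member was called, Mvd, higher in SKG, where edgeR called 1.46% of all tested genes higher and 1.82% lower. By an unadjusted p under 0.05, 2 members were higher and 1 lower there. In NKT2 cells 2 members were called, Scd2 and Acaca, both lower in SKG, against 3.90% of all genes called higher and 4.05% lower. By an unadjusted p under 0.05, 3 members were higher and 4 lower. In NKT17 cells 1 member was called, Sqle, higher in SKG, against 3.83% of all genes called higher and 4.54% lower. By an unadjusted p under 0.05, 7 members were higher and 5 lower. For none of the 3 subsets is the share of all tested genes under that unadjusted p given here. Over the 30 members the median log2 difference was 0.01, -0.14 and 0.10 in the order NKT1, NKT2 and NKT17, and over all tested genes it was -0.0067, -0.0036 and 0.0045. The median absolute log2 difference was 0.14, 0.21 and 0.35 for the members and 0.21, 0.25 and 0.25 for all tested genes. DESeq2 called the same members in NKT1 and NKT2 and, in NKT17, Acaca lower and Mvk and Sqle higher.

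**Figure D2:**
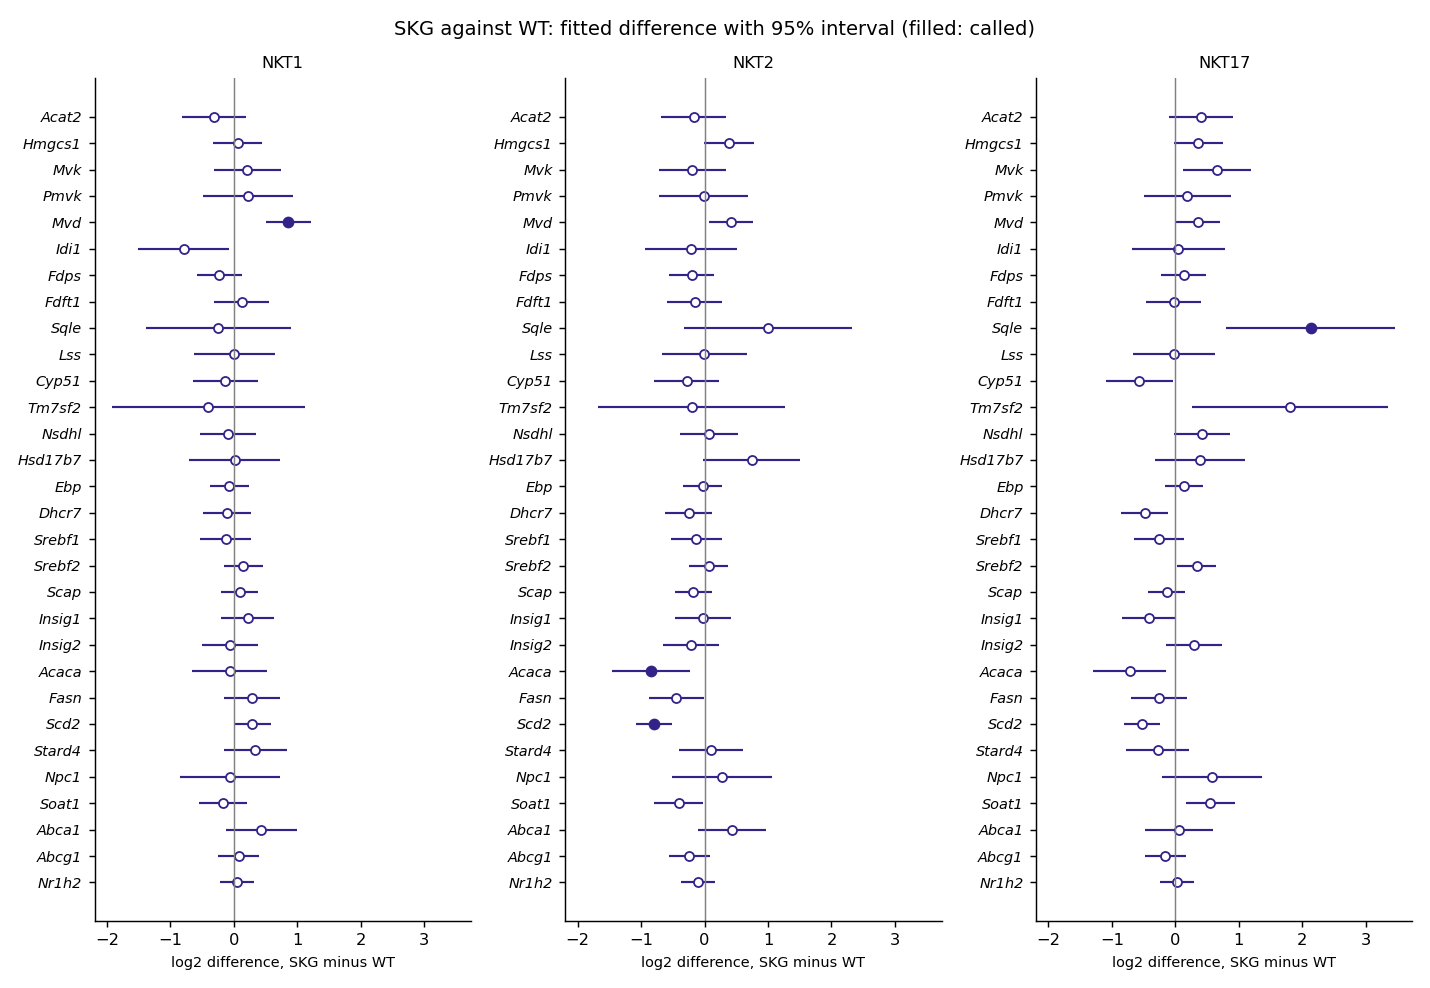
Fitted log2 difference of SKG minus WT for the 30 tested members in NKT1, NKT2 and NKT17, with lines for the 95% interval and filled points for called genes. Mvd in NKT1 and Sqle in NKT17 lie to the right of 0, and Acaca and Scd2 in NKT2 to the left.

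Among the genes of fatty acid synthesis, 2 of the 3 tested were called lower in SKG NKT2, where 4.05% of all tested genes were called lower. Scd2, which puts the double bond into saturated fatty acids, was the member with the lowest adjusted p there, and Acaca, the carboxylase that makes malonyl-CoA for chain building, fell with it in NKT2. Fasn, which assembles palmitate, was not called in either NKT2 or NKT17, and its values follow. The summed level of the 4 genes was 186 to 199 CPM in SKG NKT2 against 292 to 360 CPM in WT NKT2, and 140 to 157 CPM in SKG NKT17 against 199 to 222 CPM in WT NKT17, so that neither pair of groups overlapped. In NKT1 the order was the other way, at 129 to 135 CPM in SKG and 99.7 to 121 CPM in WT. Scd2 was the largest term of the sum in all 6 groups.

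Scd2 (chromosome 19, 44368166 to 44381354, build NCBIM37, whole gene) was at 232, 223 and 297 CPM in the 3 WT NKT2 libraries and at 149, 144 and 138 CPM in those of SKG NKT2. Every SKG library was below every WT library, and the log2 difference was -0.80 (SE 0.130, 1.74-fold lower, edgeR adjusted p 0.000227). In NKT17 it was at 143, 126 and 130 CPM in WT and at 91.2, 92.5 and 92.9 CPM in SKG. The groups were again apart, with a log2 difference of -0.53 (SE 0.131, edgeR adjusted p 0.0119), which is 1.44-fold and so under the fold minimum. In NKT1 the gene was lowest, at 54.6, 70.3 and 47.5 CPM in WT and 73.8, 70.2 and 67.0 CPM in SKG, with overlapping libraries and a log2 difference of 0.29 (SE 0.134, edgeR adjusted p 0.329). The difference of the SKG effect itself was tested: it was lower in NKT2 than in NKT1 by a log2 of -1.10 (SE 0.187, edgeR adjusted p 0.00108) and lower in NKT17 than in NKT1 by -0.82 (SE 0.188, edgeR adjusted p 0.0169). Between NKT17 and NKT2 the SKG effect differed by 0.27 (95% interval -0.13 to 0.68).

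Acaca (chromosome 11, 83943174 to 84215153) was at 32.3, 20.6 and 20.4 CPM in WT NKT2 and at 16.1, 12.3 and 12.4 CPM in SKG NKT2. The libraries did not overlap, although WT replicate 1 stood well above the other WT libraries. The log2 difference was -0.84 (SE 0.280, edgeR adjusted p 0.0675), and the call was lost when WT NKT2 replicate 1, SKG NKT2 replicate 2 or SKG NKT2 replicate 3 was left out (adjusted p up to 0.272), at a threshold of 0.05, and with the replicate block (adjusted p 0.101). In NKT17 the gene was at 46.7, 43.3 and 61.4 CPM in WT and at 33.1, 19.9 and 39.2 CPM in SKG, all SKG libraries being lower, with a log2 difference of -0.72 (SE 0.264) at an edgeR adjusted p of 0.101, just outside the threshold. In NKT1 the levels overlapped (24.7 ± 7.58 CPM in WT, 23.6 ± 3.61 CPM in SKG). The SKG effect on Acaca in NKT2 differed from that in NKT1 by -0.78 (95% interval -1.63 to 0.07, edgeR adjusted p 0.375), which did not pass.

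Fasn (chromosome 11, 120667254 to 120685492) was at 56.4, 47.4 and 41.4 CPM in WT NKT2 and 33.3, 38.4 and 35 CPM in SKG NKT2. All SKG libraries were lower, but the log2 difference of -0.44 (SE 0.201, edgeR adjusted p 0.204) did not pass. In NKT17 the difference was -0.26 (SE 0.205, edgeR adjusted p 0.528) and in NKT1 0.29 (SE 0.201, edgeR adjusted p 0.592). Scd1 had 5 to 6 counts in each WT NKT2 library (1.02 ± 0.182 CPM), 1 to 3 counts in SKG NKT2, and 0 to 3 counts in each library of the other groups. A count of 3 is taken as the floor in describing levels and was not used to filter genes. Scd1 did not pass the filter on low counts, so it was not compared in the fit of the tested genes.

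**Figure D3:**
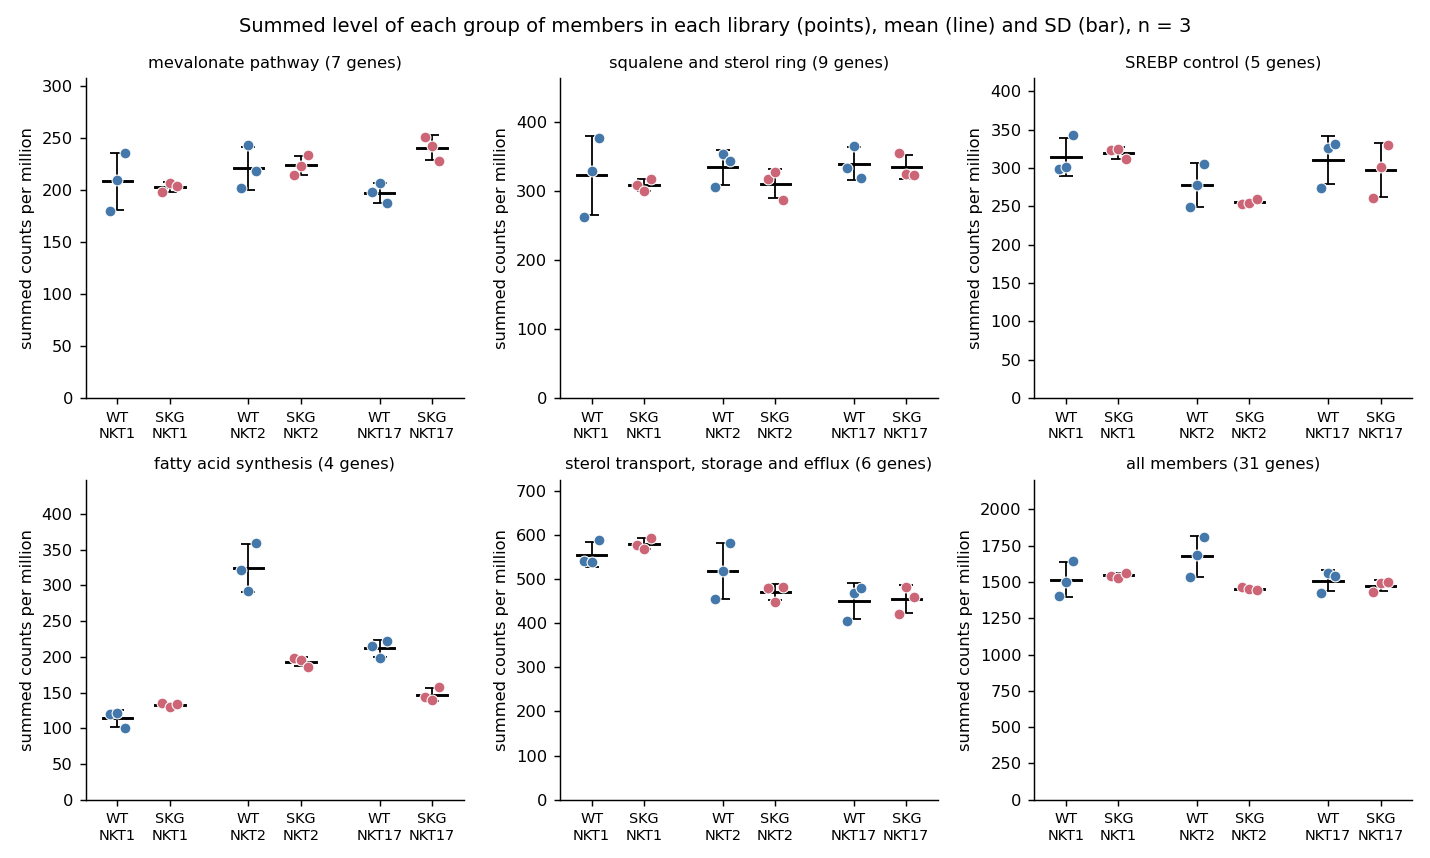
Summed CPM of the members of each role and of all 31 members in each library (points, blue for WT and red for SKG), with the mean (line) and SD (bar) of the 3 libraries of a group. The fatty acid synthesis panel has SKG below WT in NKT2 and NKT17, and the mevalonate panel has SKG above WT in NKT17. The sums of the squalene and sterol ring, SREBP control and transport genes overlap between genotypes in each subset. The sum of all members is 1447 to 1464 CPM in SKG NKT2 and 1533 to 1809 CPM in WT NKT2, and overlaps in NKT1 and NKT17. Scd2, 1 of its terms, averaged 144 CPM in SKG NKT2 and 251 CPM in WT NKT2.

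Among the 7 genes of the mevalonate pathway, Mvd was called in NKT1, higher in SKG, and in NKT17 all 7 had a positive log2 difference while none was called. Mvd (chromosome 8, 124957496 to 124967322), the decarboxylase that makes isopentenyl diphosphate, was at 21.4, 19.9 and 19.0 CPM in WT NKT1 and 32.5, 35.4 and 41.4 CPM in SKG NKT1. The groups were far apart for their spread, with a log2 difference of 0.86 (SE 0.165, 1.81-fold, edgeR adjusted p 0.00392) that was called under all 15 alternatives. In NKT2 the levels were 39.3 ± 2.01 CPM in WT and 52.3 ± 5.11 CPM in SKG, without overlap, a log2 difference of 0.41 (SE 0.159, edgeR adjusted p 0.127). In NKT17 they were 53.2 ± 7.34 and 68.1 ± 8.81 CPM, with overlap, a log2 difference of 0.36 (SE 0.157, edgeR adjusted p 0.183). The SKG effect on Mvd was not shown to differ between NKT2 and NKT1 (-0.45, 95% interval -0.95 to 0.05, edgeR adjusted p 0.391) or between NKT17 and NKT1 (-0.50, 95% interval -1.0 to -0.01, edgeR adjusted p 0.296).

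The summed level of the mevalonate genes in NKT17 was 228 to 251 CPM in SKG and 187 to 207 CPM in WT, without overlap, and in NKT1 and NKT2 the sums of the genotypes overlapped. The kinase gene Mvk was at 13.7, 8.87 and 11.3 CPM in WT NKT17 and 18.0, 19.4 and 15.6 CPM in SKG NKT17. All SKG libraries were higher, at a log2 difference of 0.65 (SE 0.246) and an edgeR adjusted p of 0.111, outside the threshold. Acat2, the thiolase of the first step, and Hmgcs1, the synthase of the second, were also higher in every SKG NKT17 library than in any of WT, at 0.41 (SE 0.232, edgeR adjusted p 0.333) and 0.36 (SE 0.178, edgeR adjusted p 0.247). The differences of Pmvk (0.19), Fdps (0.13) and the isomerase Idi1 (0.05) in NKT17 were smaller than their standard errors. In NKT1 Idi1 was at 31.5 ± 9.12 CPM in WT and 18.1 ± 4.72 CPM in SKG (log2 -0.79, SE 0.330, edgeR adjusted p 0.271), with overlapping libraries.

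Of the 9 genes from squalene to the sterol ring, Sqle was called in NKT17. Squalene epoxidase, which it encodes, makes the first oxygenated intermediate of the sterol route. Sqle (chromosome 15, 59146632 to 59162747) had 1, 3 and 9 counts in the WT NKT17 libraries (0.195, 0.522 and 1.24 CPM) and 24, 14 and 18 counts in those of SKG NKT17 (3.40, 2.44 and 3.38 CPM). The SKG libraries were all higher, with a log2 difference of 2.13 (SE 0.611, edgeR adjusted p 0.0298). The size of this fold rests on WT libraries close to the floor of 3 counts, and without WT NKT17 replicate 1 the call was lost (adjusted p 0.133). In NKT2 Sqle had 5 to 7 counts in WT and 6 to 14 in SKG (log2 1.00, SE 0.607, edgeR adjusted p 0.376), and in NKT1 17 to 34 counts in all libraries (log2 -0.24, SE 0.527, edgeR adjusted p 0.916). The difference of the SKG effect on Sqle between NKT17 and NKT1 was 2.38 (SE 0.805, edgeR adjusted p 0.131) and did not pass in edgeR, while DESeq2 called it.

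No later gene of the sterol route was called between genotypes in the edgeR fit of group means, without a replicate block. Dhcr7, the reductase of the last step of cholesterol synthesis, was at 111, 113 and 96.6 CPM in WT NKT17 and 83.9, 73.3 and 71.5 CPM in SKG NKT17. It was lower in every SKG library (log2 -0.48, SE 0.171, edgeR adjusted p 0.0869), at less than 1.5-fold. Cyp51, the lanosterol demethylase, was at 17, 16.5 and 26.5 CPM in WT NKT17 and 13, 13.8 and 13.7 CPM in SKG NKT17 (log2 -0.57, SE 0.242, edgeR adjusted p 0.165). Tm7sf2, a sterol reductase with 6 to 48 counts in the NKT17 libraries, was at 1.81 (SE 0.710, edgeR adjusted p 0.127), and the sterol dehydrogenase gene Nsdhl at 0.42 (SE 0.202, edgeR adjusted p 0.229). Hsd17b7, a ketoreductase of the same steps, was at 4.82 ± 1.13 CPM in WT NKT2 and 8.04 ± 3.22 CPM in SKG NKT2 (log2 0.74, SE 0.351, edgeR adjusted p 0.229). The squalene synthase Fdft1, the cyclase Lss and Ebp lay within 0.15 of 0 on the log2 scale in all 3 subsets, with 95% intervals that ran from -0.68 to 0.66 at their widest.

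None of the 5 genes of SREBP control was called between genotypes by edgeR or by DESeq2. Of their 15 differences, 2 had an unadjusted p under 0.05, both in NKT17, and that share over all genes is not given here. Insig1, which retains the SREBPs when sterols are high and is itself an SREBP target, was at 31, 27.5 and 34.7 CPM in WT NKT17 and 20.4, 25.3 and 24.0 CPM in SKG NKT17. All SKG libraries were lower (log2 -0.42, SE 0.193, edgeR adjusted p 0.204). Srebf2 was at 43.5 ± 4.01 CPM in WT NKT17 and 54.9 ± 4.63 CPM in SKG NKT17, higher in every SKG library (log2 0.33, SE 0.141, edgeR adjusted p 0.163). Srebf1 differed by -0.13, -0.13 and -0.26 on the log2 scale in NKT1, NKT2 and NKT17, and Scap by 0.09, -0.17 and -0.14, each less than 1.5 times its standard error. Insig2 differed by -0.06, -0.21 and 0.29.

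Of the 6 genes of sterol transport, storage and efflux, none was called between genotypes in that fit, but the SKG effect on Soat1 differed between subsets. Soat1 encodes the acyltransferase that esterifies cholesterol for storage. Soat1 (chromosome 1, 158358239 to 158404459) was at 56.6, 51.3 and 49.8 CPM in WT NKT17 and 64.7, 91.8 and 74.1 CPM in SKG NKT17, and at 86.0, 96.6 and 96.2 CPM in WT NKT2 and 66.9, 81.2 and 62.1 CPM in SKG NKT2. Every SKG library was higher than every WT library in NKT17 and lower in NKT2, and SKG NKT2 and SKG NKT17 overlapped where their WT counterparts did not. The log2 differences were 0.55 (SE 0.178, edgeR adjusted p 0.0573, under 1.5-fold) in NKT17 and -0.41 (SE 0.176, edgeR adjusted p 0.179) in NKT2. The difference between these effects was 0.96 (SE 0.250, edgeR adjusted p 0.0585), a call that was lost on leaving out any of 8 of the 12 libraries concerned, namely replicates 2 and 3 of WT NKT2, WT NKT17 and SKG NKT17 and replicates 1 and 3 of SKG NKT2 (adjusted p up to 0.163). In NKT1 Soat1 was at 94.3 ± 26.8 CPM in WT and 84.1 ± 6.55 CPM in SKG.

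For the differences of the SKG effect as a whole, 1 member was called lower between NKT2 and NKT1 (Scd2), where 2.09% of all tested genes were called higher and 1.78% lower. Between NKT17 and NKT1, 1 member was called lower (again Scd2), where 2.05% of all genes were called higher and 2.12% lower. Between NKT17 and NKT2, 1 member was called higher (Soat1), where 1.14% of all genes were called higher and 1.05% lower. Each subset's WT and SKG libraries enter more than 1 of these comparisons.

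Abca1, which exports cholesterol to apolipoproteins, did not pass between genotypes, at log2 differences of 0.43 in NKT1, 0.44 in NKT2 and 0.06 in NKT17 (edgeR adjusted p 0.486, 0.333 and 0.931). Abcg1 was at 291 ± 56.2 CPM in WT NKT1 and 307 ± 9.24 CPM in SKG NKT1, 258 ± 40.9 and 218 ± 22.9 CPM in NKT2, and 221 ± 44.1 and 198 ± 15.7 CPM in NKT17. Nr1h2 differed by at most 0.10 in either direction on the log2 scale, with 95% intervals from -0.37 to 0.32 over the 3 subsets. The sterol carrier gene Stard4 (0.34, 0.10 and -0.28) and Npc1 (-0.06, 0.28 and 0.57) did not pass either.

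**Figure D4:**
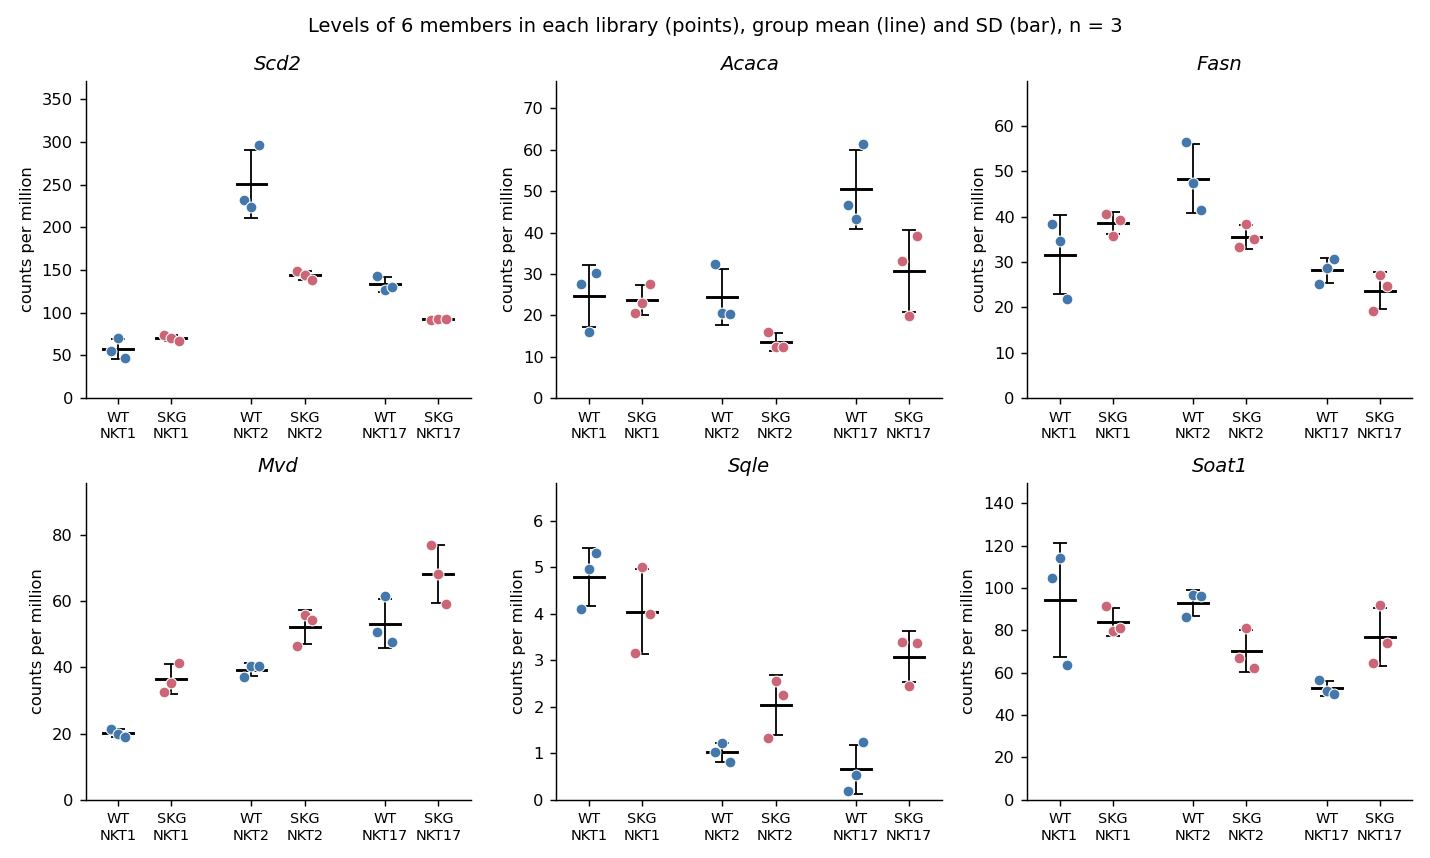
CPM of Scd2, Acaca, Fasn, Mvd, Sqle and Soat1 in each library (points, blue for WT and red for SKG), with the mean (line) and SD (bar) of the 3 libraries of a group, on axes that start at 0. Scd2 stands highest in WT NKT2 (223 to 297 CPM), Mvd is higher in SKG than in WT in NKT1 without overlap, and Soat1 is higher in SKG in NKT17 and lower in NKT2.

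Genes of cell division also differed between the groups. The summed level of 18 proliferation genes was 2278 to 2593 CPM in WT NKT2 against 1347 to 1579 CPM in SKG NKT2, and 1214 to 1479 CPM in WT NKT17 against 688 to 854 CPM in SKG NKT17. In NKT2 6 of the 18 were called lower in SKG (median log2 -0.63), in NKT17 13 were (median -1.05), and in NKT1 1 was, Mcm2 (median -0.21). Of all tested genes, 4.05%, 4.54% and 1.82% were called lower in NKT2, NKT17 and NKT1. In NKT2 and NKT17 the SKG libraries were also lower for Scd2 and Acaca. In NKT1 the proliferation sum averaged 1192 CPM in SKG and 1409 CPM in WT, with overlap. Scd2 averaged 70.3 CPM in SKG NKT1 and 57.4 CPM in WT NKT1, and Acaca 23.6 and 24.7 CPM, also with overlap. The part of cell division in these differences was not tested. The sums of B cell and double-positive markers given above were higher in SKG NKT17, where Sqle was called and Soat1 higher. Those rises were mostly Cd79b, Cd8a and Cd8b1, and other markers of these lists, among them Ms4a1, Rag1, Rag2 and Dntt, were not higher there. The part of these markers in the differences was not tested. In RNA from sorted populations, fewer cells of a kind and less RNA per cell cannot be told apart.

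The comparison of subsets asked how the pathway is set in NKT1, NKT2 and NKT17 cells. Here 19 of the 30 tested members were called in at least 1 of 6 comparisons, and the same share over all genes is not given here. In single comparisons 16.7% to 33.3% of the members were called, against 18.7% to 27.5% of all tested genes. Calls went both ways within each role except SREBP control, where Insig1 and Srebf2 were called in 1 direction, lower in NKT2. In WT, NKT1 against NKT2 gave 5 members called higher and 5 lower, where 13.7% of all tested genes were called higher and 13.7% lower. NKT1 against NKT17 gave 4 higher and 4 lower, where 11.2% of all genes were called higher and 13.5% lower. NKT17 against NKT2 gave 3 higher and 4 lower, where 11.0% of all genes were called higher and 8.97% lower. Within SKG these comparisons gave 5 higher and 2 lower (10.0% and 8.63% of all genes), 3 higher and 2 lower (10.2% and 12.5%), and 4 higher and 3 lower (10.5% and 8.27%). The median absolute log2 difference of the members was 0.44 between WT NKT1 and NKT2 and 0.41 over all tested genes, and over the other comparisons the 2 medians were also close (0.35 to 0.44 for the members and 0.31 to 0.35 for all genes).

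**Figure D5:**
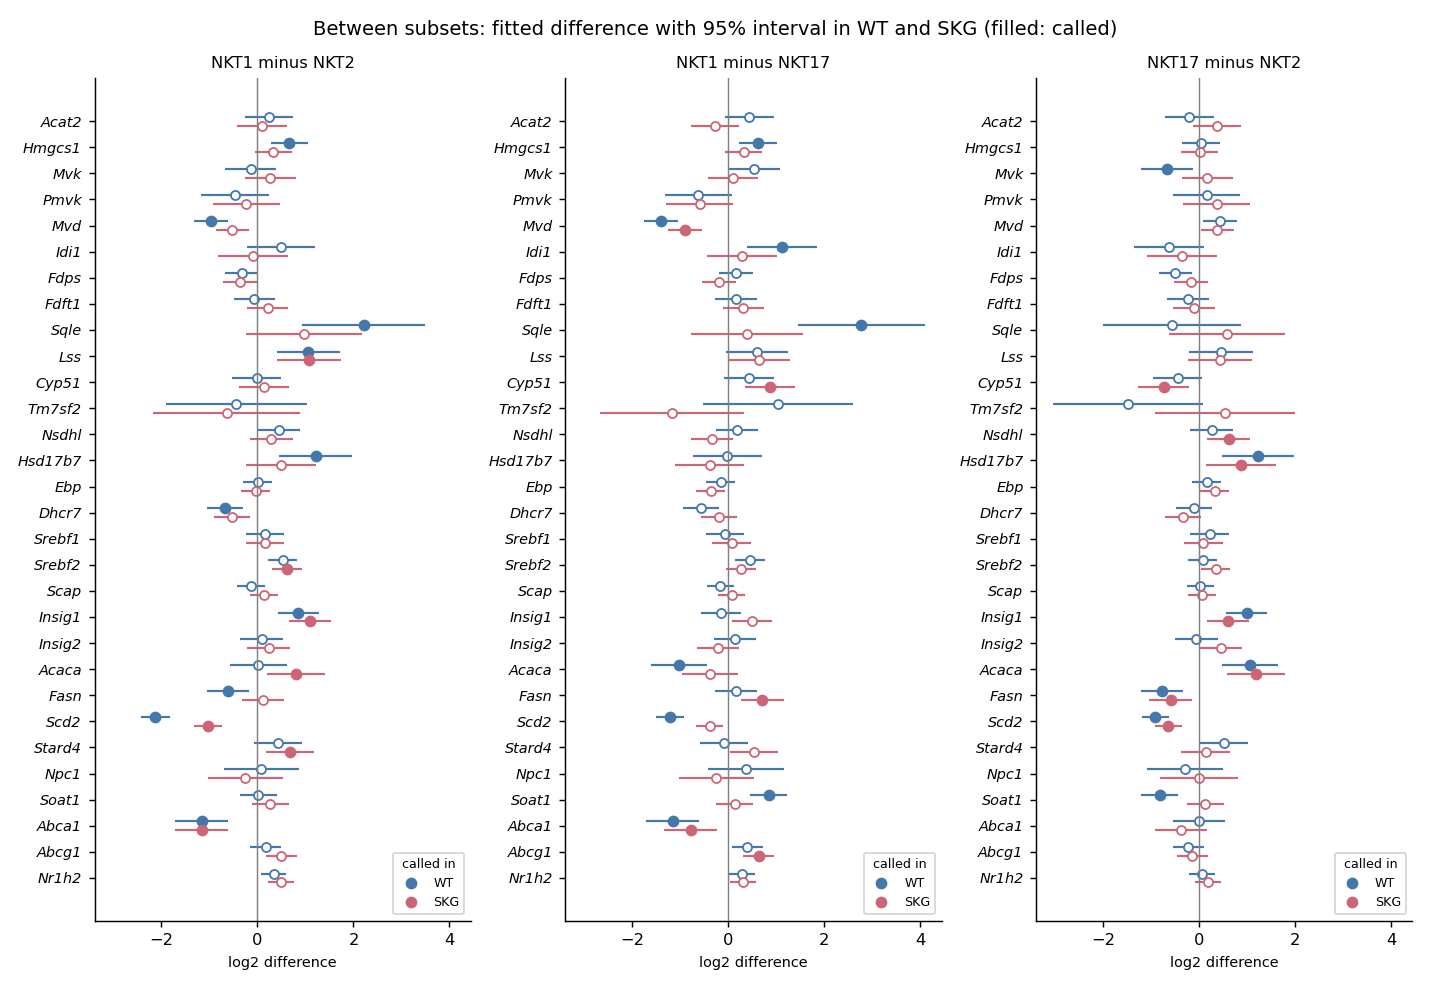
Fitted log2 differences between subsets for the 30 tested members, within WT (blue) and within SKG (red), with lines for the 95% interval and filled points for called genes. Scd2 and Mvd lie to the left of 0 in NKT1 minus NKT2 and NKT1 minus NKT17, and Acaca and Insig1 to the right in NKT17 minus NKT2.

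All 3 tested genes of fatty acid synthesis were called between subsets, and the same share over all genes is not given here. Scd2 was lowest in NKT1 (57.4 ± 11.7 CPM in WT), intermediate in NKT17 (133 ± 9.01 CPM) and highest in NKT2 (251 ± 40.3 CPM), with no overlap between any pair of WT subsets. In WT NKT1 it was lower than in NKT2 by a log2 of -2.13 (SE 0.136, 4.37-fold, edgeR adjusted p 3.62e-11) and lower than in NKT17 by -1.21 (SE 0.134, edgeR adjusted p 1.80e-07), and NKT17 was below NKT2 by -0.91 (SE 0.130, edgeR adjusted p 1.16e-05). In SKG the order was kept with smaller steps: -1.03 for NKT1 against NKT2 (SE 0.133, edgeR adjusted p 3.23e-06), -0.64 for NKT17 against NKT2 (SE 0.132, edgeR adjusted p 0.000836), and -0.39 for NKT1 against NKT17, which was under the fold minimum (edgeR adjusted p 0.0328).

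Acaca had another order. It was highest in NKT17 (50.4 ± 9.60 CPM in WT) and alike in level in WT NKT1 (24.7 ± 7.58 CPM) and WT NKT2 (24.4 ± 6.81 CPM), so that NKT17 was above NKT2 by a log2 of 1.05 in WT (SE 0.267, edgeR adjusted p 0.00543) and 1.18 in SKG (SE 0.278, edgeR adjusted p 0.00301). NKT1 was below NKT17 in WT (-1.03, edgeR adjusted p 0.00483) and above NKT2 in SKG (0.80, edgeR adjusted p 0.0449). Fasn was higher in NKT2 than in NKT17, at 48.4 ± 7.57 against 28.2 ± 2.75 CPM in WT (log2 -0.78, SE 0.202, edgeR adjusted p 0.00638) and 35.5 ± 2.6 against 23.6 ± 4.08 CPM in SKG (log2 -0.59, SE 0.204, edgeR adjusted p 0.0418). The SKG call was lost without SKG NKT17 replicate 1 or SKG NKT2 replicate 2 (adjusted p up to 0.207). Fasn was also higher in SKG NKT1 than in SKG NKT17 (log2 0.71, SE 0.204, edgeR adjusted p 0.0113), at 0.58 and under the fold minimum without SKG NKT17 replicate 1. In WT it was lower in NKT1 than in NKT2 (-0.61, edgeR adjusted p 0.0229).

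In the mevalonate pathway Mvd and Hmgcs1 went opposite ways. Mvd was lowest in NKT1 and highest in NKT17, and WT NKT1 was below WT NKT2 by a log2 of -0.97 (SE 0.164, edgeR adjusted p 7.23e-05) and below WT NKT17 by -1.40 (SE 0.164, edgeR adjusted p 4.24e-07). In SKG NKT1 was below NKT17 by -0.90 (SE 0.159, edgeR adjusted p 0.000126). Hmgcs1 was at 44.5, 33 and 42.2 CPM in WT NKT1, 20.8, 28.3 and 26.5 CPM in WT NKT2 and 24.8, 26.1 and 27 CPM in WT NKT17. NKT1 was above both without overlap, by 0.66 against NKT2 (SE 0.178, edgeR adjusted p 0.00625) and 0.62 against NKT17 (SE 0.178, edgeR adjusted p 0.0103). These calls sit near the fold minimum. Both were lost under upper-quartile scaling and without WT NKT1 replicate 1, the first also without WT NKT2 replicate 1 and the second also without WT NKT17 replicate 1 or WT NKT1 replicate 3, with log2 values down to 0.52 and 0.53. Idi1 was higher in WT NKT1 than in WT NKT17 (1.12, edgeR adjusted p 0.0135), and Mvk lower in WT NKT17 than in WT NKT2 (-0.67, edgeR adjusted p 0.0524). Acat2, Pmvk and Fdps were called in no comparison.

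Of the squalene and sterol genes, Sqle was the one with the widest range between WT subsets, at 26 to 34 counts in WT NKT1 (4.79 ± 0.622 CPM) against 5 to 7 in WT NKT2 and 1 to 9 in WT NKT17. The log2 differences were 2.21 against NKT2 (SE 0.587, edgeR adjusted p 0.00555) and 2.77 against NKT17 (SE 0.606, edgeR adjusted p 0.00111), and in SKG neither was called. Lss, whose enzyme closes the ring of lanosterol, was at 22.9 ± 7.34 CPM in WT NKT1 and 10.9 ± 4.13 CPM in WT NKT2 (log2 1.06, edgeR adjusted p 0.00923). It was at 21.2, 22.3 and 25.5 CPM in SKG NKT1 and 9.69, 12.9 and 10.1 CPM in SKG NKT2, a log2 difference of 1.07 (SE 0.303, edgeR adjusted p 0.0125) without overlap. Hsd17b7 was lowest in NKT2 and was higher in WT NKT17, at 13.5, 8.69 and 11.7 CPM against 5.93, 3.67 and 4.85 CPM (log2 1.23, SE 0.346, edgeR adjusted p 0.0115). It was also called higher in WT NKT1 than in WT NKT2 (1.21, edgeR adjusted p 0.00929) and, with overlapping libraries, in SKG NKT17 than in SKG NKT2 (0.87, edgeR adjusted p 0.0659).

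Dhcr7 was lower in WT NKT1 (72.6 ± 19.8 CPM) than in WT NKT2 (115 ± 13.0 CPM), at -0.67 (edgeR adjusted p 0.00444). Cyp51 was at 13, 13.8 and 13.7 CPM in SKG NKT17, below the 19.6 to 30.7 CPM of SKG NKT1 (log2 of NKT1 minus NKT17 0.87, SE 0.242, edgeR adjusted p 0.00931) and below the 21.7 to 23.5 CPM of SKG NKT2 (-0.74, SE 0.243, edgeR adjusted p 0.0319). Nsdhl was at 56.4, 41.4 and 44.1 CPM in SKG NKT17 and 32.8, 29.8 and 30 CPM in SKG NKT2 (log2 0.62, SE 0.204, edgeR adjusted p 0.0325), a call lost without SKG NKT17 replicate 1 (log2 0.47, adjusted p 0.176). Fdft1, Tm7sf2 and Ebp were called in no comparison.

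In SREBP control Insig1 was lower in NKT2 than in both other subsets in each genotype. It was at 13.5, 18.0 and 15.4 CPM in WT NKT2, against 23.5, 30.4 and 30.8 CPM in WT NKT1 and 31, 27.5 and 34.7 CPM in WT NKT17. NKT2 lay wholly below both, and the log2 differences were 0.85 for NKT1 (SE 0.197, edgeR adjusted p 0.00187) and 0.99 for NKT17 (SE 0.197, edgeR adjusted p 0.000566). In SKG they were 1.10 for NKT1 (SE 0.198, edgeR adjusted p 0.000226) and 0.60 for NKT17 (SE 0.199, edgeR adjusted p 0.0333). The last call was lost under upper-quartile scaling and without SKG NKT2 replicate 1, SKG NKT17 replicate 2 or SKG NKT17 replicate 3, with log2 values down to 0.54. Srebf2 was at 72.8, 61 and 64.1 CPM in SKG NKT1 and 41.6, 40.1 and 47.9 CPM in SKG NKT2 (log2 0.61, SE 0.142, edgeR adjusted p 0.00288), a call lost under upper-quartile scaling and without SKG NKT1 replicate 1 or SKG NKT2 replicate 2 (log2 down to 0.53). Srebf1, Scap and Insig2 were called in no comparison.

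Among the genes of transport, storage and efflux, Abca1 was low in NKT1 and Soat1 low in WT NKT17. Abca1 was at 26.3, 13.9 and 25.5 CPM in WT NKT1, 54.6, 33.2 and 59.8 CPM in WT NKT2 and 39.4, 47.5 and 60.3 CPM in WT NKT17. NKT1 was below both other subsets without overlap, by -1.16 against NKT2 (SE 0.254, edgeR adjusted p 0.00119) and -1.16 against NKT17 (SE 0.254, edgeR adjusted p 0.00120). In SKG the differences were -1.16 (SE 0.252, edgeR adjusted p 0.00161) and -0.79 (SE 0.252, edgeR adjusted p 0.0232), the second of which was lost without SKG NKT1 replicate 1 (adjusted p 0.101).

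Soat1 was lower in WT NKT17 than in WT NKT1, by a log2 of NKT1 minus NKT17 of 0.84 (SE 0.177, edgeR adjusted p 0.000735), and lower than in WT NKT2 by -0.82 (SE 0.178, edgeR adjusted p 0.00131). Neither was called in SKG. Abcg1 was at 312, 297 and 313 CPM in SKG NKT1 and 185, 215 and 194 CPM in SKG NKT17 (log2 0.64, SE 0.149, edgeR adjusted p 0.00231). Stard4 was higher in SKG NKT1 than in SKG NKT2 (0.67, edgeR adjusted p 0.0416). Npc1 and Nr1h2 were called in no comparison, which leaves 12 of the 31 members, Scd1 included, without a call.

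The proliferation genes also differed between subsets: 15 of 18 were called lower in WT NKT1 and 16 in WT NKT17 than in WT NKT2, and 8 and 14 in the same comparisons within SKG. Of all tested genes, 13.7% and 8.97% were called lower in these comparisons in WT, and 8.63% and 8.27% in SKG. Scd2 was highest in NKT2 in both genotypes and Fasn in WT, while in SKG Fasn was highest in NKT1 (38.6 CPM against 35.5 CPM in NKT2), and the part of cell division in these levels was not tested. Acaca was highest in NKT17 in both genotypes, where the proliferation sum was below that of NKT2. In both genotypes Insig1, Lss and Hsd17b7 were lowest in NKT2.

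A wider list of 82 other genes of these pathways in the table, of which 76 were tested, was also compared between genotypes. In NKT1 2 were called higher in SKG and in NKT2 3 higher and 2 lower, and in NKT17 2 were called higher and 2 lower, where 3.27%, 7.95% and 8.37% of all tested genes were called in either direction. The median log2 differences of the list were -0.04, -0.02 and 0.01. Acly, the ATP citrate lyase that makes the acetyl-CoA used by both routes, was at 623, 710 and 549 CPM in WT NKT2 and 284, 326 and 334 CPM in SKG NKT2 (log2 -1.0, SE 0.119, edgeR adjusted p 4.88e-06). In NKT17 it was at 562, 482 and 416 CPM in WT and 266, 272 and 264 CPM in SKG (log2 -0.86, SE 0.119, edgeR adjusted p 3.32e-05). The SKG libraries were below those of WT in both subsets, and in NKT1 the levels overlapped (log2 -0.10, edgeR adjusted p 0.800). The SKG effect on Acly was also called lower in NKT2 and in NKT17 than in NKT1.

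Acsl3, a long-chain acyl-CoA synthetase, was lower in SKG NKT2 (26.4 ± 2.54 CPM in WT, 14.3 ± 1.93 CPM in SKG, log2 -0.89, SE 0.314, edgeR adjusted p 0.0895). This call was lost when any 1 of the 6 libraries was left out, at a threshold of 0.05, without the filter on low counts and with the replicate block. Arl4c, a small GTPase gene induced by liver X receptors, was higher in SKG: 136 ± 34.0 against 397 ± 53.7 CPM in NKT2 (log2 1.55, SE 0.305, edgeR adjusted p 0.00517) and 77.2 ± 12.3 against 292 ± 19.3 CPM in NKT17 (log2 1.92, SE 0.311, edgeR adjusted p 0.00126). In NKT1 its difference was 0.71 (edgeR adjusted p 0.302). Mbtps2, which encodes the site-2 protease that frees SREBPs, was higher in SKG NKT2 (15.3 ± 6.11 against 27.3 ± 4.72 CPM, log2 0.83, SE 0.283, edgeR adjusted p 0.0750). That call was lost without WT NKT2 replicates 1 or 3 or SKG NKT2 replicates 2 or 3, at a threshold of 0.05 and with the replicate block. Acadl, a dehydrogenase of fatty acid oxidation, was higher in SKG NKT2 (49.3 ± 5.14 against 79.0 ± 8.98 CPM, log2 0.68, SE 0.135, edgeR adjusted p 0.00168) and just under the fold minimum without SKG NKT2 replicate 3. In NKT1 Acadl was lower in every SKG library, under the fold minimum (log2 -0.43, SE 0.131, edgeR adjusted p 0.0864). Scarb1, a receptor for high-density lipoprotein, was higher in SKG NKT1 (24.0 ± 2.63 against 44.9 ± 8.92 CPM, log2 0.91, SE 0.172, edgeR adjusted p 0.00366). The remaining calls between genotypes, Acacb higher in NKT1 and Apobr higher and Acsl3 lower in NKT17, fell outside the rule for named genes and are named after their values were seen.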

How the data were processed

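RNA from 18 sorted iNKT populations (3 subsets, 2 genotypes, 3 libraries a group) was converted to full-length cDNA and sequenced in 50-base single-end reads. The deposited values are raw read counts per gene: the authors removed low-complexity reads (DUST score over 4), aligned with TopHat and counted with HTSeq in union mode. The submitters' processing notes name TopHat 1.4.1, Bowtie 1.0.0, HTSeq 0.7.1 and both mm10 and hg19, while the methods of the study name mm9. The annotation and strand setting are not given in the sources used here. Gene coordinates and lengths were taken from GENCODE M1 on NCBIM37 and promoters from RefSeq on GRCm38.p6. No coordinates were converted between builds.

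The table held 23337 genes, of which 15582 had a count. Library totals were 4391029 to 8895917, with 11657 to 13071 genes detected, and 2 columns that match no listed sample were not used. Genes were filtered by group (filterByExpr), scaled by TMM and fitted in edgeR 4.0.16 (R 4.3.3) with 6 group means (robust quasi-likelihood, 12 residual degrees of freedom, common biological coefficient of variation 21.1%). All p-values are two-sided and Benjamini-Hochberg adjusted over the 11118 tested genes. A call needed an adjusted p under 0.1 and a 1.5-fold change. Standard errors were obtained from each log2 difference and the root of its F statistic. The scripts were tested on simulated data. The members, the other lists and the comparisons were chosen with earlier results of these data known. All members were named, with full statistics for those called in a genotype comparison or a difference of effects and, between subsets, for the 3 of lowest adjusted p in each direction. Other pathway genes were named, up to 3 in each direction, where they were called between genotypes with at least 50 counts on average in the higher group and no overlap of libraries, by size of change.

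Alternatives were DESeq2 1.42.0, other scalings, filters and thresholds, each comparison's groups alone, leaving out each library, and the sample number of the titles as a block. The labels do not say what that number marks. Some numbers were shared by WT and SKG libraries and others held a single genotype, so the number is partly confounded with genotype. With the block, differences between genotypes therefore rest mainly on the shared numbers. Deviations of same-numbered libraries correlated at -0.061 to 0.35 between subsets (over 0.1 in 12 of 18 pairs) and at -0.15 to 0.090 between genotypes (over 0.1 in 0 of 6). Every pair was over 0.1 only for WT NKT17 and WT NKT2, where the block kept the same 7 member calls.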

Additional observations from a re-analysis of the deposited data

Results flagged for a closer look

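For 3 results the effect of SKG differed between subsets by the test of that difference in edgeR. The log2 difference of Scd2 between SKG and WT was lower in NKT2 than in NKT1 by -1.10 and lower in NKT17 than in NKT1 by -0.82, and both were called in each alternative run. That of Soat1 was higher in NKT17 than in NKT2 by 0.96, a call that did not hold at an adjusted p under 0.05 or without any of 8 libraries.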

How the results depend on the processing

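Alternatives were followed gene by gene for the 41 called member results that are given with full statistics. The other member calls between subsets, of higher adjusted p in their comparison and direction, were left out of this tally. Of the 630 alternatives, 596 kept the call and its direction, 34 lost the call and 0 reversed. Of the 41 results, 30 kept their call in every alternative. Counts of called members moved as follows, and the causes were not tested. For SKG against WT in NKT2 the count went from 2 to 1 at an adjusted p under 0.05 and to 1 with the replicate block, Acaca being lost in both, and to 1 to 2 on leaving out single libraries. In NKT17 it went from 1 to 4 without a fold minimum, 2 with RLE scaling, 4 with the replicate block (Cyp51, Soat1, Sqle and Tm7sf2), 3 with only the groups compared and 3 with DESeq2, and to 0 to 2 on leaving out single libraries, with 0 without WT NKT17 replicate 1. Without a fold minimum SKG NKT1 against NKT2 went from 7 to 11 (4 to 8 on leaving out libraries, with 4 without SKG NKT2 replicate 2), and SKG NKT1 against NKT17 from 5 to 10. The difference of the SKG effect between NKT17 and NKT1 went from 1 to 2 with DESeq2 (1 to 2 on leaving out libraries), and that between NKT17 and NKT2 from 1 to 0 at an adjusted p under 0.05 (0 to 1). The block moved no other count of called members by over 1.5 times. Among values that were not called, the SKG difference in NKT1 changed sign on leaving out libraries for Acaca (-0.06, range -0.27 to 0.11) and Soat1 (-0.17, range -0.37 to 0.013).

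Over all genes, calls went from 364 to 207 in NKT1 with only the groups compared and from 931 to 1398 in NKT17 without a fold minimum. For the difference of effects between NKT17 and NKT1 they went from 464 to 278 at an adjusted p under 0.05 and to 296 without SKG NKT17 replicate 3, and for that between NKT17 and NKT2 from 244 to 155 and, without SKG NKT17 replicate 1, to 157. With 3 libraries a group, members of few counts such as Sqle, Tm7sf2 and Scd1 have wide intervals, and a difference that missed the threshold was not shown to be absent.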
